A study of Mus musculus with 31 samples.

Results

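Kidneys of untreated cystic mice were compared with wild-type kidneys, using every PBS-treated Pcy/CD1 library and every wild-type CD1 library of the series, chosen by their labels alone. That gave 17 of the 31 kidneys sequenced, 12 from PBS-treated Pcy/CD1 mice and 5 from wild-type CD1 mice. Pcy/CD1 mice carry the pcy mutation on the CD1 stock, an outbred albino strain, and develop slowly progressing cysts. The PBS-treated mice were males injected under the skin with the carrier solution alone from 5 weeks of age, and kidneys were taken at 30 weeks; the interval is once weekly in 1 label and monthly in the protocol text. The wild-type mice were males of the same age that received no injection. Genotype, colony of origin and injection therefore differed between the groups together and cannot be told apart here. The other 14 kidneys, from Pcy/CD1 mice given the anti-miR-17 oligonucleotide RGLS4326, entered the filter on low counts, the scaling and the estimate of spread, but not the comparison itself.

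In cystic kidney disease, tubules widen into fluid-filled cysts, the epithelium around them takes on an injured and proliferative state, and immune cells and scar tissue accumulate between the tubules. The healthy kidney burns fatty acids in its proximal tubule to power reabsorption, while the distal nephron and collecting duct adjust salt, calcium, acid and water.

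Expression is given as CPM, the deposited gene counts scaled to counts per 1e6 of the library total, which was first multiplied by edgeR's TMM factor. A gene was called higher or lower when its adjusted p was under 0.05 and its absolute log2 fold change over 0.5. Each adjusted p is that of the quasi-likelihood test in edgeR, corrected by the Benjamini-Hochberg method over all 15185 genes that passed the filter on low counts, and every log2 fold change is PBS-treated minus wild type, with an approximate standard error after the ± sign. Counts on genes ranged from 16519885 to 25582754 with PBS and from 19449688 to 20733811 in wild type. Wild-type mice 3 and 4 were more alike than any other wild-type pair, with a chi-square of 2.84 per gene over 10690 genes against 17.13 to 24.46 in the other pairs; they differed by more than counting noise, as 2 libraries of 1 animal also would, so this does not show that they are separate animals. The labels list them as 2 mice and both were kept; summed as 1 mouse, they gave 3743 higher and 2678 lower genes. Numbers in the library names fall into 3 series, with 4 PBS-treated mice in each and 2, 2 and 1 wild-type mice, and list medians within each series are given beside the pooled one where they move it by more than 1.5 times. Each library is called a mouse here, as the labels list it, but a legend of the study names fewer animals per group for sequencing, so whether each library is a separate animal is not settled. The p-values measure the spread between these libraries. The scaling matters for the direction of small changes. The 10 most counted genes held 14.2% to 15.1% of wild-type counts and 8.26% to 12.7% of PBS counts, and the part of this in the scaling was not tested. The median log2 fold change of all genes was 0.01 with TMM scaling, 0.13 with upper-quartile factors and 0.38 with unscaled library totals, and the share of calls in the higher direction was 58.1%, 68.6% and 85.4%. Markers of the labelled tissue (Lrp2, Slc34a1, Umod, Slc12a1, Aqp2 and Nphs1) were counted in every library.

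Much of the kidney transcriptome differed between the groups. Of the 15185 genes, 6442 were called (42.4%), 3741 higher with PBS (24.6%) and 2701 lower (17.8%), and the adjusted p alone passed for 11281 (74.3%). With only the 17 mice compared in the fit, 14999 genes were tested, and 3757 were called higher and 2512 lower. Of the called genes, 755 rose and 112 fell by more than 4-fold. The groups did not overlap for 6403 genes (42.2%), with every PBS-treated mouse above every wild-type mouse for 20.3% of genes and below for 21.9%. Within the 3 number series, the higher and lower calls numbered 3347 and 2342, 3216 and 2429, and 2603 and 2325. With shares this large, a gene list is described by how far its counts and its median depart from these background values. The lists of nephron segments, cell types and pathways hold 650 distinct genes and were chosen with earlier results of these data known. Their medians separate by programme, which is a description and was not tested. Among the 41 lists of kidney, immune, stromal and metabolic genes, macrophage and chemokine genes had the 2 highest medians, and all lists with medians under −1 except that of the lone mast cell gene belonged to the proximal tubule or to gluconeogenesis.

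**Figure D1:**
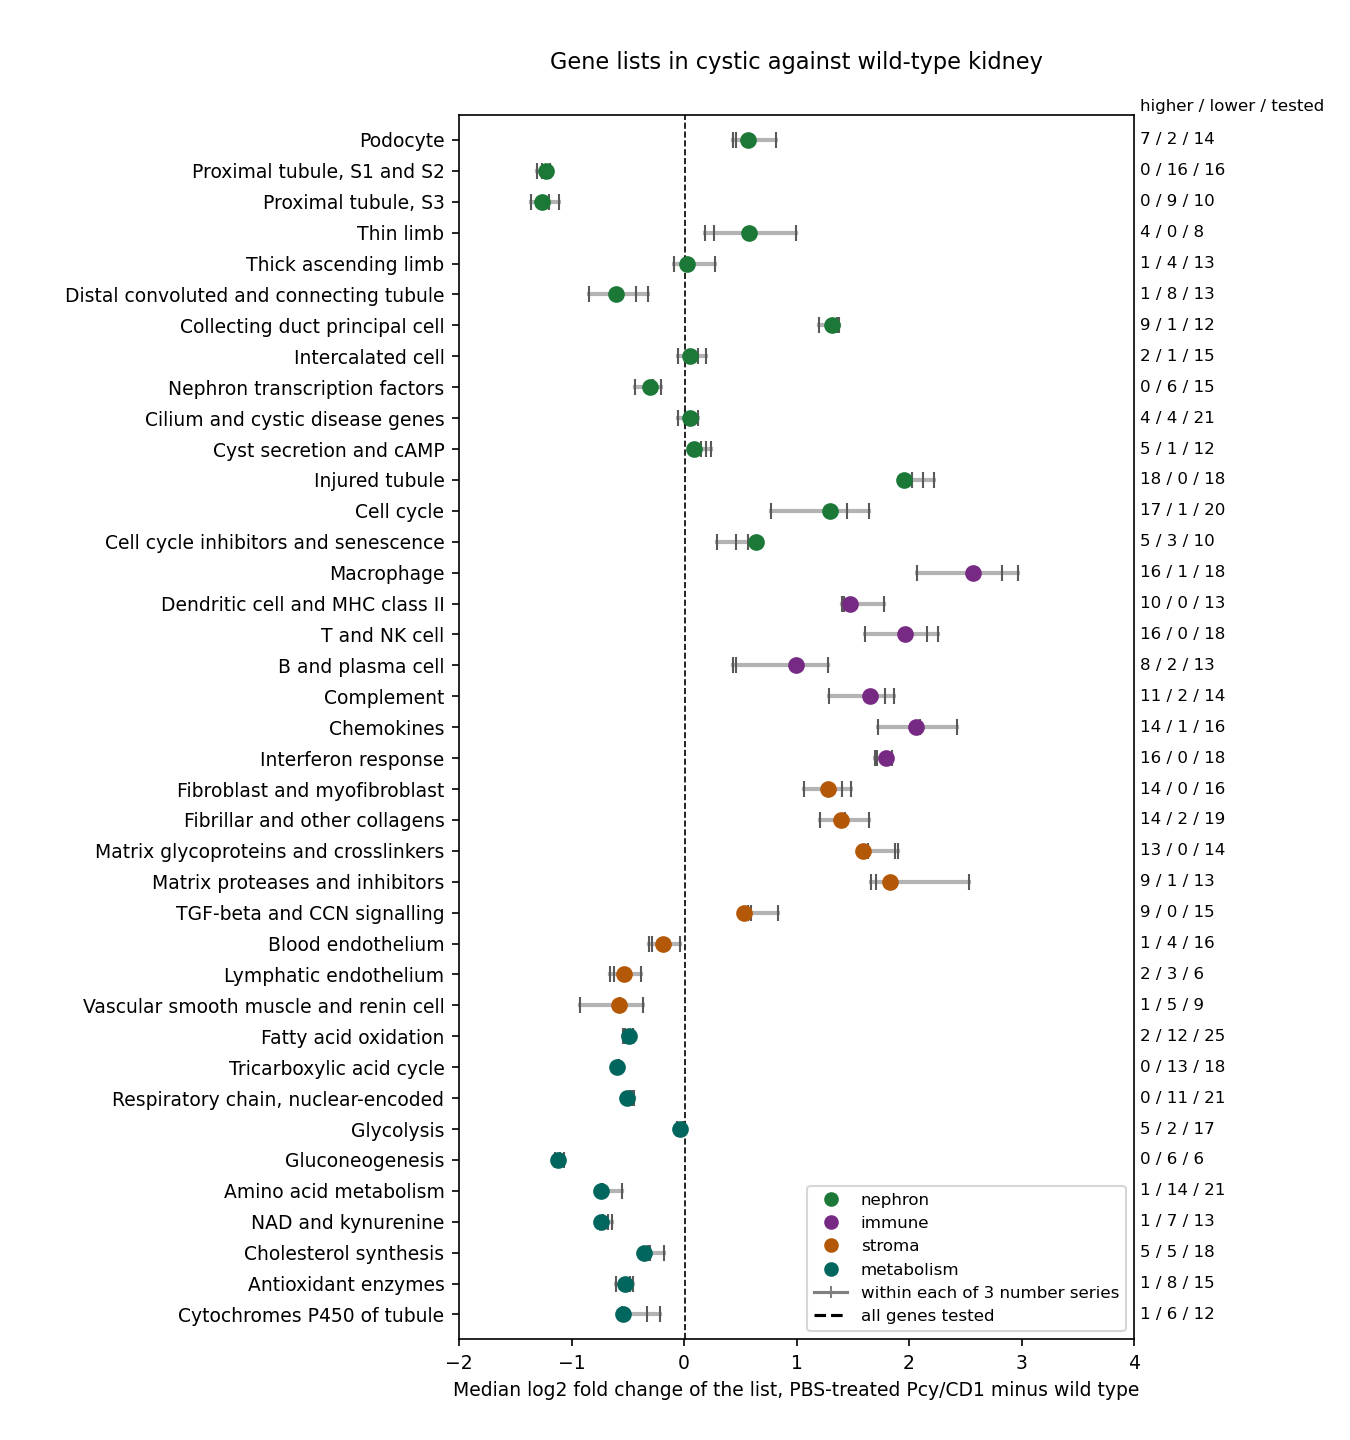
Median log2 fold change of PBS-treated Pcy/CD1 minus wild type for each list with at least 5 genes tested (x axis, log2). Each point is the median over the list's tested genes, from the fit comparing the 12 and 5 mice. Ticks joined by a bar are the medians within the 3 number series, and the dashed line is the median of all 15185 genes. The numbers at the right count members higher, lower and tested. The macrophage list has the highest point (2.57), and the proximal tubule and gluconeogenesis points lie between −1.26 and −1.12.

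Transporters of the proximal tubule, the segment that reclaims most of the filtered glucose, phosphate, amino acids and protein, fell together. All 16 genes of the list for its S1 and S2 segments were called lower, with a median log2 fold change of −1.23 against 0.01 over all genes, and the groups did not overlap for 15 of them. Lrp2 encodes megalin, the endocytic receptor for filtered protein. It read 3771, 3590, 3731, 3660 and 3295 CPM in wild-type mice 1 to 5 and 559 to 1945 CPM (median 1521 CPM) with PBS, a fall of 2.52-fold (log2 fold change −1.33 ± 0.20, adjusted p = 6.50e-07). The phosphate transporter Slc34a1 read 8203, 7900, 7416, 7179 and 7279 CPM in wild type and 2091 to 4538 CPM (median 3231 CPM) with PBS (log2 fold change −1.21 ± 0.18, adjusted p = 5.68e-07). For both genes every PBS-treated mouse lay below every wild-type mouse. The widest fall in the list was that of the dicarboxylate transporter Slc13a3, from 988–1443 CPM in wild type to 198–517 CPM (log2 fold change −1.86 ± 0.21, adjusted p = 2.13e-08). The narrowest was that of Slc5a2, the glucose transporter SGLT2, at 445–662 CPM against 228–469 CPM (log2 fold change −0.84 ± 0.16, adjusted p = 1.76e-05). The organic anion transporter Slc22a6, which brings drugs and urate into the cell, fell from 1894–2418 CPM to 664–1226 CPM, and its log2 fold changes within the 3 number series were −0.99, −1.41 and −1.29. In bulk kidney, fewer proximal tubule cells and less RNA of these genes per cell cannot be told apart.

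The straight end of the proximal tubule, S3, changed in the same direction. Of 10 genes 9 fell, with a median of −1.26; Slc6a18, a neutral amino acid transporter, was the exception at 0.08 ± 0.12. The cystine and acidic amino acid transporter Slc7a13 read 1331, 1257, 1176, 1243 and 1218 CPM in wild type and 259.5 to 815 CPM (median 550.0 CPM) with PBS (log2 fold change −1.29 ± 0.20, adjusted p = 9.76e-07). The organic anion transporter Slc22a7 fell from 249–473 CPM to 33.1–215 CPM (log2 fold change −1.82 ± 0.26, adjusted p = 3.68e-07). The monocarboxylate transporter Slc5a8 fell from 304–381 CPM to 65.1–202 CPM (log2 fold change −1.496 ± 0.20, adjusted p = 1.14e-07). Within the 3 number series the S3 median was −1.20, −1.11 and −1.36, and that of S1 and S2 was −1.31, −1.19 and −1.26.

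Podocyte genes moved in both directions. Podocytes are the cells whose interlocking foot processes form the glomerular filter. Of 14 genes 7 rose and 2 fell, with a median of 0.57. The slit diaphragm gene Nphs1 (nephrin) was not called, at −0.22 ± 0.14 on the log2 scale, with a wild-type range of 16.6–32.4 CPM against 14.9–29.02 CPM with PBS. Wt1, the transcription factor that maintains podocytes, rose from 2.65–4.08 CPM to 4.77–10.01 CPM (log2 fold change 1.08 ± 0.22, adjusted p = 6.03e-05). Kirrel, a partner of nephrin in the slit diaphragm, rose from 7.61–9.87 CPM to 16.1–36.3 CPM (log2 fold change 1.57 ± 0.19, adjusted p = 5.61e-08). The scaffold gene Magi2 and the foot process gene Clic5 fell, with log2 fold changes of −0.74 and −0.61, and Clic5 was not called without wild-type mice 3 and 4.

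For the thin limb of the loop of Henle, 4 of 8 genes were called higher, with a median of 0.58 and series medians of 0.26, 0.997 and 0.19, but the groups overlapped for every gene of the list. Aqp1, the water channel of the proximal tubule and thin descending limb, read 1097–1452 CPM in wild type and 831–1228 CPM with PBS (log2 fold change −0.28 ± 0.10, adjusted p = 0.0126). The urea transporter Slc14a2 spanned 39.1–96.8 CPM with PBS and 20.4–65.7 CPM in wild type (log2 fold change 0.82 ± 0.25, adjusted p = 0.00421). Without wild-type mice 3 and 4 only 1 thin limb gene was called.

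In the thick ascending limb, the segment that dilutes the urine, 4 of 13 genes fell and 1 rose, with a median of 0.02 and series medians of 0.01, −0.09 and 0.27; the pooled median also turned negative with a replicate block. Slc12a1, the furosemide-sensitive cotransporter NKCC2, read 1353, 1257, 1199, 1240 and 1208 CPM in wild type and 551 to 1159 CPM (median 901 CPM) with PBS (log2 fold change −0.53 ± 0.15, adjusted p = 0.00261); leaving out PBS-treated mouse 3, 5 or 10 or wild-type mouse 1 moved it to between −0.48 and −0.49 and ended the call, as did library totals and upper-quartile factors. Umod, which encodes uromodulin, the most abundant protein of normal urine, was not called, at 3599–5031 CPM against 4242–5464 CPM (−0.16 ± 0.08). Egf, the epidermal growth factor precursor made in this segment, fell from 1549–2401 CPM to 499–1193 CPM (log2 fold change −1.18 ± 0.19, adjusted p = 3.12e-06). The claudins of the paracellular cation pathway split, since Cldn10 fell (−0.54 ± 0.09, −0.50 and not called without wild-type mouse 1) and Cldn19 rose (0.90 ± 0.11).

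More of the distal convoluted and connecting tubule list fell. Of 13 genes 8 fell and 1 rose, with a median of −0.61 and series medians of −0.43, −0.84 and −0.32. With library totals 4 remained lower. Slc12a3, the thiazide-sensitive sodium chloride cotransporter, read 965, 1069, 1162, 1132 and 728 CPM in wild type and 528 to 779.8 CPM (median 613 CPM) with PBS (log2 fold change −0.68 ± 0.12, adjusted p = 6.64e-06). Pvalb, the calcium-binding protein parvalbumin, read 65.6, 69.8, 74.7, 71.3 and 50.2 CPM in wild type and 1.49 to 7.80 CPM (median 4.55 CPM) with PBS, a fall of 14.2-fold (log2 fold change −3.83 ± 0.50, adjusted p = 1.07e-07). Calb1, which encodes the calcium shuttle calbindin, fell from 179.7–422 CPM to 96.2–174 CPM (log2 fold change −1.13 ± 0.19, adjusted p = 5.23e-06), and Kl, the FGF23 coreceptor Klotho, fell from 936–1080 CPM to 331–644 CPM (log2 fold change −1.05 ± 0.15, adjusted p = 3.77e-07). The apical calcium channel Trpv5 went the other way, from 13.1–22.5 CPM to 21.7–50.5 CPM (log2 fold change 1.06 ± 0.20, adjusted p = 2.18e-05).

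In the collecting duct the direction was the reverse of that in the proximal tubule. Of 12 principal cell genes 9 rose and 1 fell, with a median of 1.31 and series medians of 1.20, 1.37 and 1.36. Aqp2, the vasopressin-regulated water channel, read 191, 284, 135, 133 and 414 CPM in wild type and 629.6 to 1761 CPM (median 1179 CPM) with PBS (log2 fold change 2.30 ± 0.25, adjusted p = 1.03e-08). Avpr2, the vasopressin receptor that raises cAMP in these cells, read 22.9, 29.8, 20.8, 21.4 and 27.5 CPM and 75.03 to 109 CPM (median 92.7 CPM) in the same order (log2 fold change 1.92 ± 0.14, adjusted p = 3.96e-11). Hsd11b2, the enzyme that shields the mineralocorticoid receptor from cortisol and corticosterone, rose from 140.4–172 CPM to 362–542 CPM (log2 fold change 1.55 ± 0.15, adjusted p = 2.56e-09). The groups did not overlap for 9 genes of the list. The exit water channel Aqp4 fell (−0.74 ± 0.23) and was not called with library totals. The beta and gamma subunits of the epithelial sodium channel rose (Scnn1b 1.20 ± 0.13, Scnn1g 1.26 ± 0.13), and the alpha subunit was not called (Scnn1a 0.37 ± 0.09).

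Intercalated cells, which secrete acid or base, stayed near the level of all genes. Of 15 genes 2 rose and 1 fell, with a median of 0.05 and series medians of 0.13, −0.05 and 0.20. Foxi1, their master transcription factor, rose from 18.2–28.1 CPM to 33.9–52.4 CPM (log2 fold change 0.86 ± 0.12, adjusted p = 5.45e-07). The proton pump subunit Atp6v1g3 and the chloride-bicarbonate exchanger pendrin, Slc26a4, were not called (0.46 ± 0.08 and −0.38 ± 0.13). Slc4a1, the anion exchanger of acid-secreting cells and of red blood cells, fell from 38.5–58.6 CPM to 15.5–32.5 CPM (log2 fold change −0.96 ± 0.17, adjusted p = 9.48e-06). The heme synthesis gene of red cell precursors, Alas2, fell beside it, from 4.39–7.57 CPM to 0.361–1.53 CPM (log2 fold change −2.76 ± 0.39, adjusted p = 3.82e-07). The 4 globin genes of the erythrocyte list read at most 0.178 CPM in every library of both groups. Only uniquely mapped reads were counted, and the part of this in the globin values was not tested. Those values therefore do not show that red cell RNA was absent.

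Several transcription factors that maintain nephron segments were lower. Of 15 genes 6 fell, with a median of −0.30, which became 0.06 with library totals, where 2 remained lower. Hnf4a, which drives proximal tubule differentiation, read 1103, 1121, 1101, 1095 and 1054 CPM in wild type and 442 to 744 CPM (median 608 CPM) with PBS (log2 fold change −0.84 ± 0.12, adjusted p = 4.95e-07). With library totals the Hnf4a value was −0.48 and was not called. Esrrg, an estrogen-related receptor that controls mitochondrial and transport genes, had the largest fall of the list, at 80.3–90.6 CPM against 32.1–57.7 CPM (log2 fold change −0.93 ± 0.14, adjusted p = 7.29e-07).

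Genes of the primary cilium and of inherited cystic disease were close to the background. Of 21 genes 4 rose and 4 fell, with a median of 0.05 and series medians of 0.01, −0.05 and 0.13. Invs, encoding the ciliary protein inversin, fell from 37.1–48.1 CPM to 15.6–25.97 CPM (log2 fold change −1.02 ± 0.11, adjusted p = 1.60e-08). Pkd1, Pkd2 and Pkhd1, the polycystin and fibrocystin genes of polycystic kidney disease, were not called. Pkd1 spanned 64.7–92.8 CPM with PBS and 60.6–69.2 CPM in wild type (log2 fold change 0.30 ± 0.08, adjusted p = 7.52e-04). Pkd2 had a log2 fold change of −0.20 ± 0.10 and Pkhd1 of 0.17 ± 0.08. The called rises were Nphp4, Bicc1, Kif7 and Bbs2, and Ift88 and Cep290 fell too.

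Cyst fluid is secreted through cAMP-driven chloride channels, and some of those genes rose. Of 12 genes 5 rose and 1 fell, with a median of 0.09 and series medians of 0.19, 0.24 and 0.15. Cftr, the chloride channel of cystic fibrosis, read 8.96, 5.41, 9.23, 9.20 and 10.8 CPM in wild type and 12.7 to 17.9 CPM (median 15.9 CPM) with PBS (log2 fold change 0.84 ± 0.16, adjusted p = 3.51e-05). The calcium-activated chloride channel Ano1 rose 1.84-fold with overlap between the groups (log2 fold change 0.88 ± 0.19, adjusted p = 1.22e-04). Pde1a, a phosphodiesterase that breaks down cAMP, rose from 62.2–69.5 CPM to 79.98–111 CPM (log2 fold change 0.59 ± 0.08, adjusted p = 2.32e-07), as did the adenylate cyclases Adcy3 (0.90 ± 0.19) and Adcy7 (1.72 ± 0.22), the latter also a gene of immune cells. The basolateral cotransporter that loads the cell with chloride, Slc12a2, fell (−0.67 ± 0.11).

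**Figure D2:**
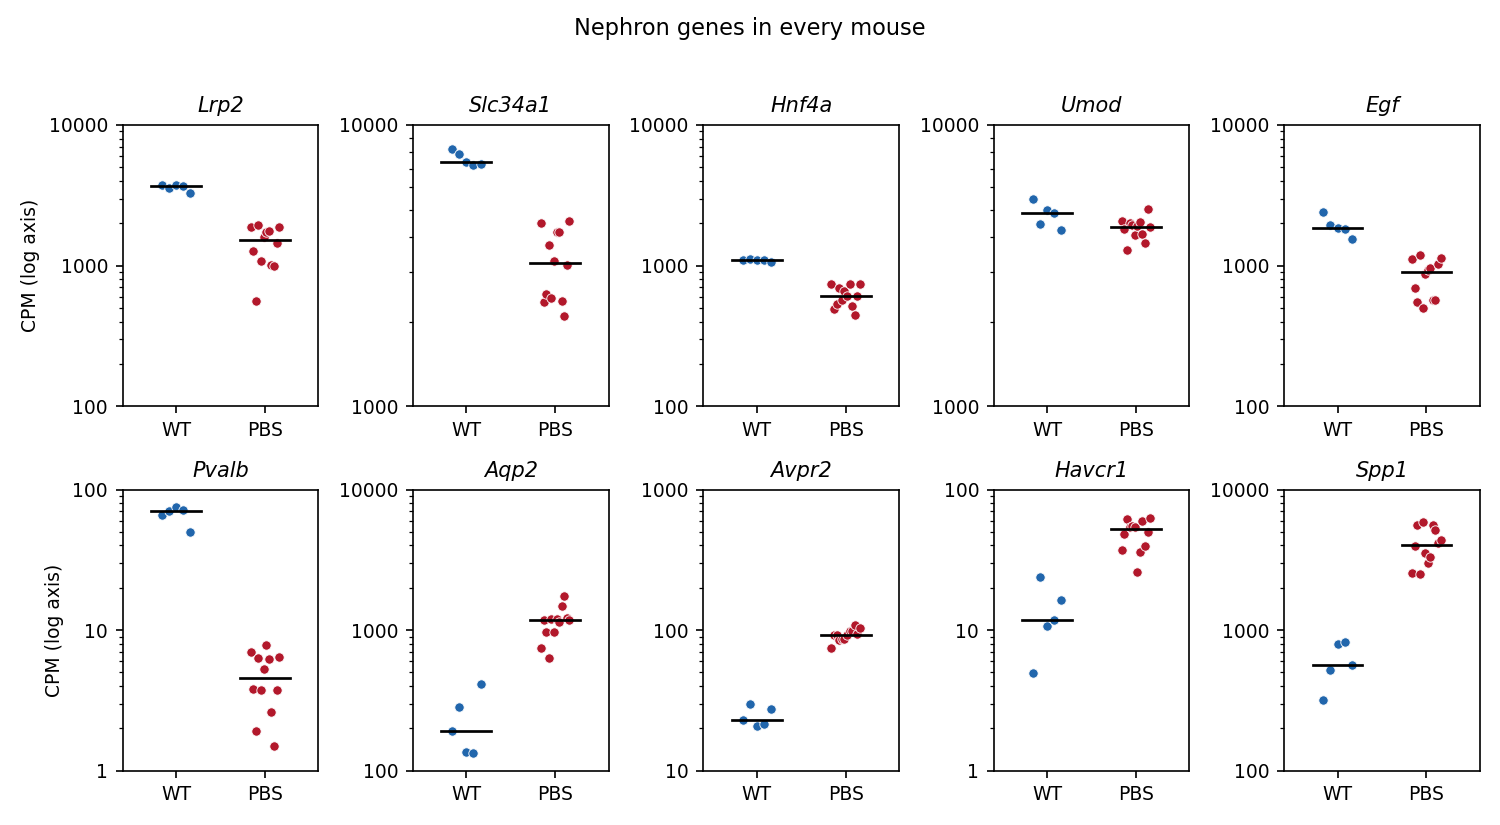
CPM (log axis) of nephron genes in the 12 PBS-treated mice and the 5 wild-type mice, each point a mouse and each bar a group median. Lrp2, Slc34a1 and Pvalb lie lower in every PBS-treated mouse than in any wild-type mouse.

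Injury genes of the tubule rose without exception among those listed. All 18 genes were called higher, the groups did not overlap for any of them, and the median was 1.96, with series medians of 2.03, 2.13 and 2.23. Havcr1, which encodes the injury marker KIM-1 of dedifferentiated proximal tubule, read 4.95, 23.7, 10.7, 11.9 and 16.4 CPM in wild type and 25.7 to 63.00 CPM (median 51.96 CPM) with PBS (log2 fold change 1.85 ± 0.36, adjusted p = 3.78e-05). Spp1, encoding the secreted matrix protein osteopontin, read 319, 518, 790.2, 822 and 568 CPM and 2522 to 5836 CPM (median 4045 CPM) in the same order (log2 fold change 2.77 ± 0.33, adjusted p = 3.33e-08). The spread between PBS-treated mice was wide in both genes, yet the lowest PBS-treated mouse stayed above the highest wild-type mouse. Vcam1, an adhesion molecule of injured tubule and of endothelium, rose 9.40-fold (log2 fold change 3.23 ± 0.37, adjusted p = 2.37e-08). Sox9, a transcription factor of repairing tubule, rose 11.6-fold (log2 fold change 3.53 ± 0.63, adjusted p = 1.11e-05). Simple epithelial keratins rose with them, from 0.91 ± 0.16 for Krt8 and 2.82 ± 0.36 for Krt18 to 2.94 ± 0.44 for Krt19 and 5.14 ± 0.64 for Krt20. Keratins are also made by urothelium, the lining of the renal pelvis, and 6 of 7 urothelial genes were called higher (median 2.08, series medians 1.87, 3.11 and 0.86). Summed urothelial levels spanned 13.9 to 186 CPM with PBS and 9.67 to 55.9 CPM in wild type, and the groups overlapped for each urothelial gene. The uroplakins Upk1b and Upk2 ranged over 1.94–30.8 CPM and 0.997–20.9 CPM with PBS. The part of pelvic urothelium in the keratin values was not tested.

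Cell cycle genes were higher too. Of 20 genes 17 rose and 1 fell, with a median of 1.301 and series medians of 1.64, 0.77 and 1.45. Mki67, which marks cycling cells, read 2.54, 2.91, 7.57, 6.78 and 2.83 CPM in wild type and 11.8 to 28.6 CPM (median 16.98 CPM) with PBS (log2 fold change 1.98 ± 0.27, adjusted p = 2.31e-07). Top2a, the topoisomerase that untangles replicated DNA, rose from 1.71–4.97 CPM to 7.83–22.03 CPM (log2 fold change 2.09 ± 0.29, adjusted p = 3.20e-07). Wild-type mice 3 and 4 were the highest of the wild-type group for both genes, and the groups did not overlap. The helicase subunit Mcm6 was an exception among the replication genes and fell from 29.7–34.1 CPM to 5.93–15.99 CPM (log2 fold change −1.61 ± 0.28, adjusted p = 6.86e-06), whereas its partners Mcm2, Mcm3, Mcm4, Mcm5 and Mcm7 rose by 0.60 to 1.48 on the log2 scale. Which cells were cycling cannot be read from bulk RNA.

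Genes that halt the cycle were split. Of 10 inhibitors and senescence genes 5 rose and 3 fell, with a median of 0.64 and series medians of 0.57, 0.46 and 0.29. Summed levels of the list overlapped, at 393 to 549 CPM with PBS and 448 to 591 CPM in wild type. Cdkn1a, the p53-induced inhibitor p21, rose from 4.37–7.17 CPM to 19.7–52.3 CPM (log2 fold change 2.49 ± 0.33, adjusted p = 1.60e-07). Cdkn2a, the locus of p16 and p19Arf, read 0.0590, 0.119, 0.118, 0.0605 and 0 CPM in wild type and 0.997 to 4.52 CPM (median 2.27 CPM) with PBS (log2 fold change 5.005 ± 0.80, adjusted p = 2.17e-06). The other rises were Cdkn2b (1.37 ± 0.30), the stress cytokine Gdf15 (1.501 ± 0.39) and Btg2 (1.62 ± 0.42). The p53 target Ccng1 fell (−0.74 ± 0.09), as did Igfbp3 (−0.81 ± 0.17) and Trp53inp1 (−0.51 ± 0.10), and Trp53inp1 was not called without any 1 of PBS-treated mice 1, 5, 9 and 11 and wild-type mouse 4 (−0.43 to −0.50).

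PBS-treated mice differed among themselves in how far each programme departed from wild type. A list's score is the mean of log2(CPM + 1) over its tested members in 1 mouse. The score for proximal tubule S1 and S2 was 7.25 to 8.39 in the PBS-treated mice and 9.10 to 9.18 in wild type. In PBS-treated mice 1 to 12 it was 8.17, 7.46, 7.26, 8.003, 7.48, 7.89, 8.17, 8.22, 7.42, 7.40, 7.82 and 8.39. The injured tubule score of the same mice was 6.06, 6.90, 7.22, 6.11, 7.37, 6.62, 6.30, 6.29, 7.15, 7.20, 6.54 and 6.49, and that of wild type lay between 3.997 and 4.54. Mice 1, 4, 7, 8 and 12 had the 5 highest proximal tubule scores and also the 5 lowest injured tubule scores and the 5 lowest macrophage scores. No PBS-treated mouse reached the wild-type range of any of these 3 scores. The order was not the same for every programme, since mouse 12 had the lowest collagen score (5.92) and the second highest principal cell score (6.98) of the PBS group.

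**Figure D3:**
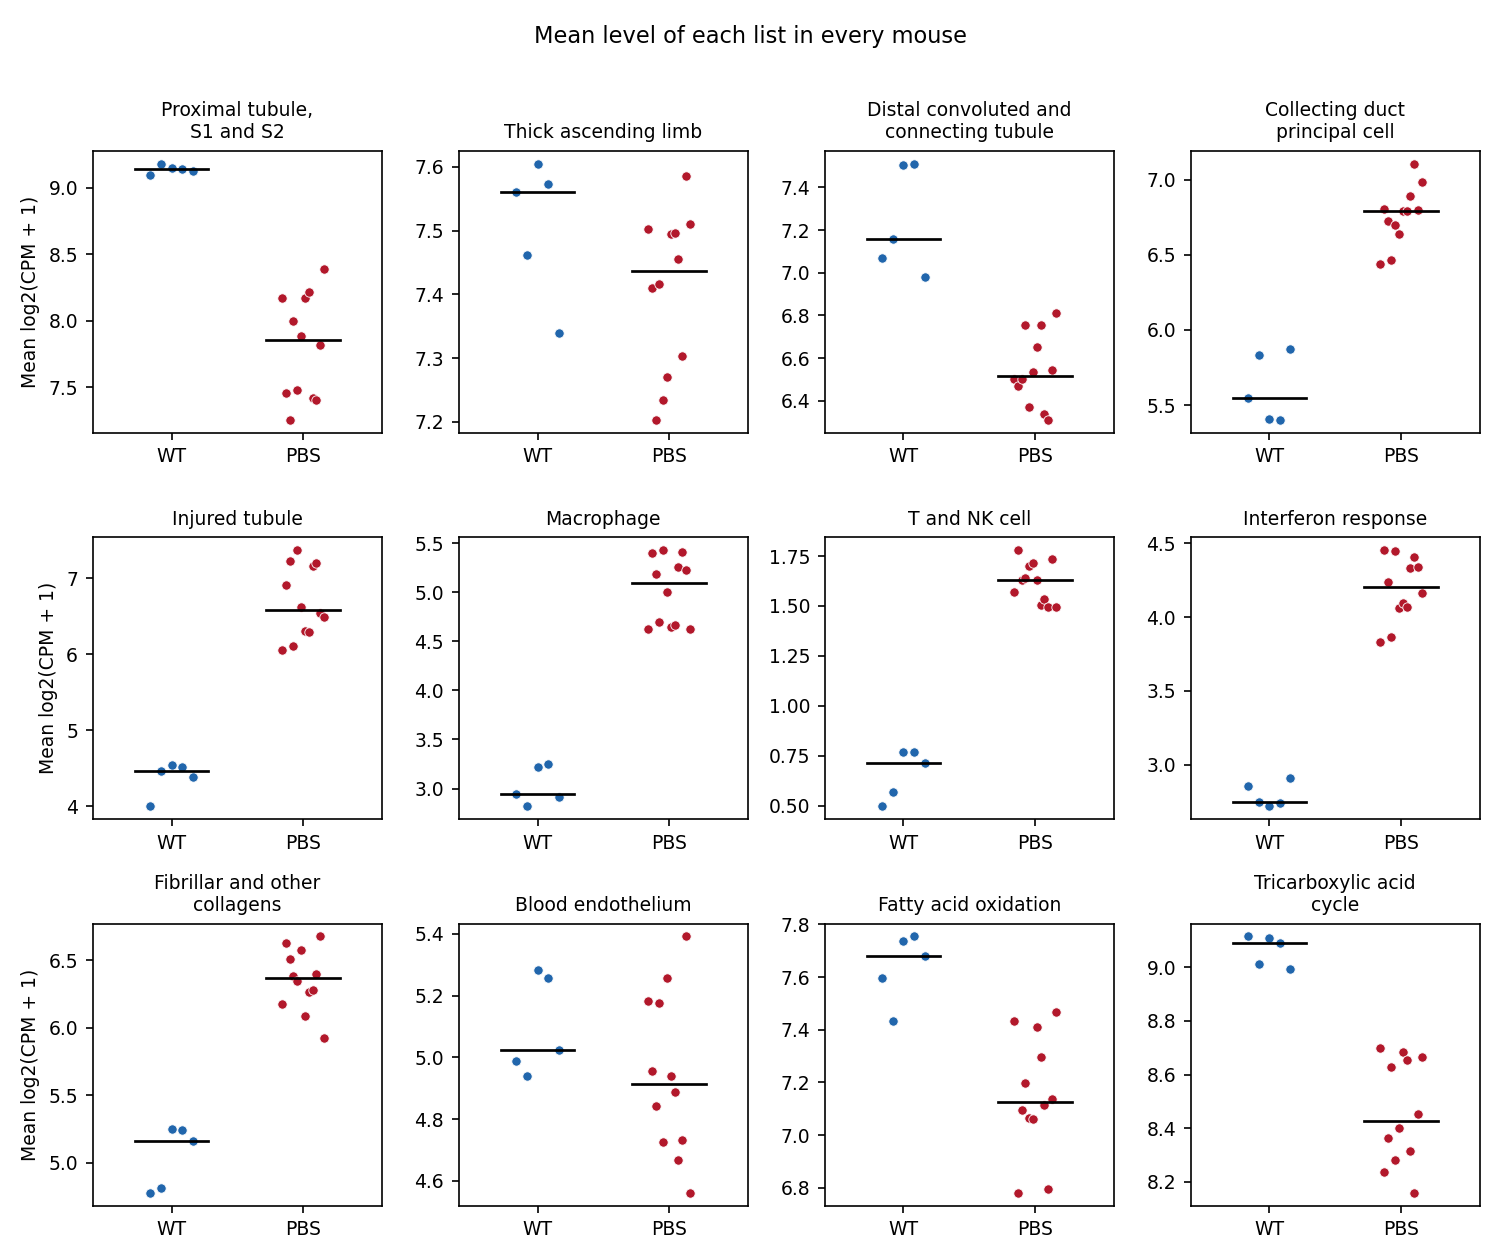
Mean log2(CPM + 1) of 12 gene lists (y axis) in each PBS-treated and wild-type mouse, each point a mouse and each bar a group median. The proximal tubule, injured tubule and macrophage panels show no overlap, and the thick ascending limb panel does.

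Immune cell markers rose across myeloid and lymphoid lineages. Of 18 macrophage genes 16 rose and 1 fell, with a median of 2.57 and series medians of 2.83, 2.07 and 2.97. Emr1, which encodes the surface marker F4/80, read 3.77, 3.09, 4.61, 4.36 and 3.85 CPM in wild type and 13.3 to 26.4 CPM (median 17.4 CPM) with PBS (log2 fold change 2.19 ± 0.34, adjusted p = 1.66e-06). Cx3cr1, the fractalkine receptor of resident kidney macrophages, read 3.66, 3.62, 6.63, 6.90 and 3.55 CPM and 21.7 to 39.5 CPM (median 30.1 CPM) in the same order (log2 fold change 2.61 ± 0.30, adjusted p = 2.07e-08). The lysosomal marker Cd68 rose 4.64-fold (log2 fold change 2.21 ± 0.27, adjusted p = 4.05e-08) and the mannose receptor Mrc1 rose 4.03-fold (log2 fold change 2.01 ± 0.23, adjusted p = 2.41e-08). Subunits of the complement starter C1q, made by macrophages, rose by 3.11 ± 0.37 (C1qa), 3.02 ± 0.38 (C1qb) and 3.05 ± 0.36 (C1qc). Csf1r, the receptor for the macrophage growth factor, was higher in each PBS-treated mouse than in any wild-type mouse but by too little to be called, at 128–167 CPM against 118–126 CPM (log2 fold change 0.27 ± 0.07, adjusted p = 0.00178). Mertk, a receptor for the uptake of dying cells that tubule cells can also express, fell from 56.6–72.96 CPM to 24.7–52.6 CPM (log2 fold change −0.91 ± 0.13, adjusted p = 7.03e-07).

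Antigen presentation genes followed, with 10 of 13 genes of the dendritic cell and MHC class II list called higher (median 1.47). H2-Ab1, a class II chain, read 113, 91.1, 106, 102 and 105 CPM in wild type and 385 to 861 CPM (median 583 CPM) with PBS (log2 fold change 2.47 ± 0.28, adjusted p = 2.23e-08). Its chaperone Cd74 rose from 164–222 CPM to 781–1928 CPM (log2 fold change 2.58 ± 0.30, adjusted p = 2.53e-08), and the integrin Itgax, which encodes CD11c, rose from 2.91–7.51 CPM to 9.25–22.8 CPM (log2 fold change 1.54 ± 0.27, adjusted p = 7.66e-06). H2-Ab1, Cd74 and Itgax are shared by dendritic cells and macrophages. Of the genes more restricted to dendritic cells, Flt3, a growth factor receptor, and Batf3, a transcription factor, rose (1.43 ± 0.28 and 2.12 ± 0.40), while the lectin receptor Clec9a, the chemokine receptor Xcr1 and the transcription factor Zbtb46 were not called (0.47 ± 0.20, 0.40 ± 0.28 and −0.04 ± 0.16).

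T cell genes were low in wild-type kidney and higher with PBS. Of 18 T and NK cell genes 16 rose, with a median of 1.96. Cd8a, the coreceptor of cytotoxic T cells, read 0.590, 1.07, 1.42, 1.70 and 3.73 CPM in wild type and 10.8 to 24.9 CPM (median 16.6 CPM) with PBS (log2 fold change 3.28 ± 0.40, adjusted p = 4.04e-08). Cd3e, a chain of the T cell receptor complex, read 0.472, 0.356, 0.592, 0.484 and 0.723 CPM and 1.53 to 3.27 CPM (median 2.35 CPM) in the same order (log2 fold change 2.14 ± 0.27, adjusted p = 6.38e-08). Cd8a and Cd3e did not rank the PBS-treated mice alike, since mouse 12 had the highest Cd8a (24.9 CPM) and the lowest Cd3e (1.53 CPM). Which cells carried the Cd8a RNA was not tested. The helper coreceptor Cd4 rose from 0.531–1.83 CPM to 3.42–6.91 CPM (log2 fold change 2.27 ± 0.29, adjusted p = 9.93e-08). Foxp3, the factor of regulatory T cells, spanned 1.47–3.20 CPM with PBS and 0–0.356 CPM in wild type. The 2 tested genes not called were both tied to killing by lymphocytes, granzyme A (Gzma, −0.46 ± 0.28) and the NK receptor Ncr1 (−0.27 ± 0.30). Granzyme B and perforin did not pass the filter on low counts, at most 0.329 and 0.535 CPM in any mouse of either group.

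For B and plasma cells 8 of 13 genes rose and 2 fell, with a median of 0.9997 and series medians of 1.28, 0.46 and 0.44. Ms4a1, which encodes the CD20 protein of B cells, spanned 0.417–2.44 CPM with PBS against 0.177–0.783 CPM in wild type (1.31 ± 0.47). The immunoglobulin joining chain, Igj, and the complement receptor Cr2 fell (−1.55 ± 0.39 and −0.61 ± 0.23), and both lost the call without wild-type mice 3 and 4. Cr2 was −0.47 and not called without wild-type mouse 1. Of the neutrophil genes only 3 passed the filter, with a median of 0.01 and series medians of 0.53, −0.47 and 1.75. S100a8 and S100a9, the calprotectin subunits, were not called, at −0.29 ± 0.42 and 0.01 ± 0.34. The granulocyte colony-stimulating factor receptor Csf3r rose (log2 fold change 1.61 ± 0.28, adjusted p = 6.79e-06). Mast cell proteases did not pass the filter, and the largest value of Cpa3 or Mcpt4 in any mouse was 0.147 CPM.

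Complement genes, many of them made by kidney tubules as well as by liver, rose in most cases. Of 14 genes 11 rose and 2 fell, with a median of 1.65 and series medians of 1.87, 1.79 and 1.29. C3, the component on which all complement routes converge, read 10.3, 15.4, 35.02, 31.97 and 33.5 CPM in wild type and 187 to 813 CPM (median 325 CPM) with PBS, a rise of 15.1-fold (log2 fold change 3.92 ± 0.43, adjusted p = 1.18e-08). C4b, of the classical route, read 43.9, 33.6, 62.4, 58.1 and 30.6 CPM and 258 to 608 CPM (median 366 CPM) in the same order (log2 fold change 3.14 ± 0.34, adjusted p = 1.18e-08). Cfi, the protease that inactivates C3b, rose from 1.43–3.51 CPM to 21.99–66.4 CPM (log2 fold change 4.07 ± 0.42, adjusted p = 5.33e-09), and the classical route protease C1ra rose 3.22-fold (log2 fold change 1.69 ± 0.16, adjusted p = 1.53e-09). Cfb, the alternative route protease, fell from 803–976 CPM to 477–769 CPM (log2 fold change −0.57 ± 0.09, adjusted p = 1.62e-06). Cd55, which shields cells by breaking up the convertase, fell (−0.90 ± 0.19) but was 0.55 within number series 3. Cfd, an adipocyte product, was called higher on PBS-treated mouse 3 at 52.4 CPM against a PBS median of 0.363 CPM. Leaving out any 1 of PBS-treated mice 3, 5, 6 or 9 or wild-type mice 1, 3, 4 or 5 ended that call (2.83 to 4.11).

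Chemokines rose with the leukocyte markers. Of 16 genes 14 rose and 1 fell, with a median of 2.06 and series medians of 2.42, 1.73 and 2.10. Ccl2, which draws monocytes from the blood, read 0.118, 1.19, 0.769, 0.303 and 0.903 CPM in wild type and 5.74 to 15.03 CPM (median 9.06 CPM) with PBS (log2 fold change 3.96 ± 0.48, adjusted p = 3.49e-08). Ccl8, another monocyte attractant, rose from 0–0.662 CPM to 3.99–14.5 CPM (log2 fold change 4.75 ± 0.54, adjusted p = 1.88e-08). Ccl5, which attracts T cells, rose from 0.826–3.25 CPM to 6.22–14.7 CPM (log2 fold change 2.27 ± 0.32, adjusted p = 3.36e-07), and the interferon-induced Cxcl9 from 0.885–1.63 CPM to 2.44–7.89 CPM (log2 fold change 1.86 ± 0.29, adjusted p = 1.96e-06). The epithelial chemokine Ccl28 was the gene that fell, at 194–412 CPM in wild type against 60.8–288 CPM with PBS (log2 fold change −1.26 ± 0.29, adjusted p = 2.62e-04), with overlap from 1 end of the PBS range.

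Interferon-stimulated genes are switched on by a transcription factor complex that includes STAT2 and IRF9 and binds a DNA element called the interferon-stimulated response element. Short windows around matches to the core of that element are shown for 7 genes of the interferon list that rose, since they let the promoter letters be read beside the values. Each line gives 30 bases from the RefSeq promoter table of GRCm38.p6, read 5′ to 3′ on the strand of the gene, with the match in capitals, and the match reads as GAAANNGAA or as its reverse complement.
Isg15, chr4:156200872-156200901, gene on the minus strand: cgtaggaaaagGAAACCGAAacagaaaata
Ifit1, chr19:34640794-34640823, gene on the plus strand: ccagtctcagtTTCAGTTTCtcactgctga
Ifit3, chr19:34583363-34583392, gene on the plus strand: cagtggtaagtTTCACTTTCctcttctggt
Oas1a, chr5:120907521-120907550, gene on the minus strand: ctcgggaaatgGAAACTGAAaatctacttc
Gbp2, chr3:142620594-142620623, gene on the plus strand: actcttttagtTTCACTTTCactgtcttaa
Bst2, chr8:71537578-71537607, gene on the minus strand: tccaggaaaatGAAACTGAAaggctgcagt
Stat2, chr10:128270266-128270295, gene on the plus strand: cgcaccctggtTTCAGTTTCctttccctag
Promoters ran from 250 bases before to 50 after each start site, both strands were searched, and matches could overlap each other. A match was found for 9 of the 12 interferon-list genes with a promoter in the table (75%) and for 9.76% of all 27025 genes. A match is a description of letters and does not show binding.

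Of the 18 interferon genes 16 rose, with a median of 1.79 and series medians of 1.70, 1.85 and 1.72. Irf7, the factor that amplifies interferon production, read 8.26, 9.50, 9.58, 8.23 and 9.996 CPM in wild type and 18.9 to 46.98 CPM (median 31.9 CPM) with PBS (log2 fold change 1.80 ± 0.26, adjusted p = 4.76e-07). Isg15, a ubiquitin-like modifier whose window heads the lines above, read 1.59, 2.44, 2.31, 2.06 and 2.35 CPM and 5.38 to 14.8 CPM (median 10.3 CPM) in the same order (log2 fold change 2.24 ± 0.31, adjusted p = 3.26e-07). The groups did not overlap for either gene. Gbp2, an antimicrobial GTPase, rose from 7.22–8.79 CPM to 22.8–47.7 CPM (log2 fold change 1.99 ± 0.23, adjusted p = 2.37e-08). Of the activating complex, Irf9 rose by 1.38 ± 0.16 and Stat2 by 0.71 ± 0.12 on the log2 scale. The viral response genes Ifi44 and Rsad2, whose promoters also hold a match, were not called (0.27 ± 0.16 and −0.11 ± 0.15).

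Fibroblast and myofibroblast genes, which mark the cells that lay down scar, rose in most cases. Of 16 genes 14 rose, with a median of 1.28 and series medians of 1.40, 1.49 and 1.07. Mfap4, a microfibril protein, read 0.885, 1.25, 1.72, 1.39 and 1.20 CPM in wild type and 6.50 to 17.4 CPM (median 13.4 CPM) with PBS (log2 fold change 3.31 ± 0.33, adjusted p = 2.90e-09). Acta2, the smooth muscle actin of myofibroblasts and vessels, rose from 27.7–37.9 CPM to 40.3–121 CPM (log2 fold change 1.28 ± 0.18, adjusted p = 4.42e-07). Postn, encoding periostin, rose from 1.42–2.14 CPM to 4.26–13.8 CPM (log2 fold change 2.29 ± 0.32, adjusted p = 2.53e-07). The receptor Pdgfrb of pericytes rose (0.85 ± 0.15), and Pdgfra had a log2 fold change of 0.50 ± 0.24 with an adjusted p of 0.0543.

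Most collagens rose, and the type IV chains of basement membrane were split. Of 19 genes 14 rose and 2 fell, with a median of 1.40. Col1a1, a chain of fibrillar type I collagen, read 9.50, 9.38, 23.8, 21.2 and 13.1 CPM in wild type and 103 to 213 CPM (median 166 CPM) with PBS (log2 fold change 3.37 ± 0.36, adjusted p = 8.41e-09). Col3a1, of type III, read 18.6, 20.8, 38.8, 40.6 and 28.3 CPM and 167 to 367 CPM (median 267 CPM) in the same order (log2 fold change 3.21 ± 0.33, adjusted p = 4.45e-09). Col4a1, a chain of every basement membrane, was not called, at 215–859.6 CPM against 340.0–483 CPM (log2 fold change 0.15 ± 0.20, adjusted p = 0.481). It became 0.71 and was called without wild-type mouse 5, which stood apart at 859.6 CPM. The glomerular basement membrane chains Col4a3 and Col4a4 fell, from 347–423 CPM to 144–345 CPM (log2 fold change −0.72 ± 0.16, adjusted p = 2.21e-04) and from 359–412 CPM to 177–300.2 CPM (log2 fold change −0.74 ± 0.13, adjusted p = 7.31e-06); neither was called with library totals. Of the other type IV chains Col4a2 and Col4a6 rose (0.54 ± 0.10 and 0.82 ± 0.22), and Col4a5 was not called (−0.41 ± 0.11).

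Matrix glycoproteins and crosslinkers rose for 13 of 14 genes (median 1.59). Fn1, encoding fibronectin, rose from 32.5–68.1 CPM to 86.2–175 CPM (log2 fold change 1.43 ± 0.20, adjusted p = 2.34e-07), Tnc, encoding tenascin C, from 3.37–19.1 CPM to 25.6–89.1 CPM (log2 fold change 2.81 ± 0.41, adjusted p = 5.87e-07), and the collagen crosslinking enzyme Lox from 0.590–3.86 CPM to 6.82–15.9 CPM (log2 fold change 2.47 ± 0.32, adjusted p = 1.12e-07). Matrix proteases and their inhibitors rose for 9 of 13 genes and fell for 1 (median 1.83). Their summed level went the other way, at 3128 to 3907 CPM with PBS and 4352 to 4582 CPM in wild type. Within those sums Timp3 held 1636 to 2649 CPM and 3288 to 3564 CPM. Timp1, which blocks metalloproteinases, read 0.0590, 0.238, 1.18, 0.848 and 0.301 CPM in wild type and 15.4 to 40.8 CPM (median 24.5 CPM) with PBS (log2 fold change 5.59 ± 0.67, adjusted p = 3.63e-08). Mmp7, the epithelial protease matrilysin, read 0, 0.475, 0.532, 0.908 and 0.181 CPM and 3.61 to 46.8 CPM (median 7.97 CPM) in the same order (log2 fold change 5.42 ± 0.99, adjusted p = 1.58e-05). The PBS range of Mmp7 spanned more than that of Timp1, and neither overlapped with wild type. Timp3, an inhibitor bound to the matrix and strongly expressed in normal kidney, fell (−0.70 ± 0.11) but not with library totals.

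In the TGF-beta and CCN list, the best known scarring signals, 9 of 15 genes rose (median 0.53, series medians 0.83, 0.60 and 0.57). Tgfb1, the ligand, rose from 9.09–13.1 CPM to 15.7–29.2 CPM (log2 fold change 1.01 ± 0.17, adjusted p = 4.19e-06). Ltbp2, a microfibril protein of the latent TGF-beta binding family, read 0.177, 0.475, 2.07, 2.42 and 1.20 CPM in wild type and 33.5 to 107 CPM (median 59.9 CPM) with PBS (log2 fold change 5.72 ± 0.67, adjusted p = 2.55e-08). Ctgf, a matricellular target of TGF-beta, rose from 37.1–57.2 CPM to 70.2–213 CPM (log2 fold change 1.55 ± 0.22, adjusted p = 3.79e-07), and Bmp7, a BMP that opposes TGF-beta in the kidney, was not called (−0.30 ± 0.07).

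Neither list of endothelial genes rose by its median. For blood endothelium 4 of 16 genes fell and 1 rose, with a median of −0.19 and series medians of −0.04, −0.31 and −0.28; the pooled median turned to 0.18 with library totals, where 1 remained lower. The pan-endothelial genes Pecam1 and Cdh5 were not called (−0.21 ± 0.16 and 0.00 ± 0.16). Kdr, the main VEGF receptor, fell from 32.4–67.2 CPM to 15.5–39.2 CPM (log2 fold change −1.05 ± 0.24, adjusted p = 2.26e-04), and Ehd3, enriched in glomerular endothelium, from 30.6–40.5 CPM to 17.3–27.6 CPM (log2 fold change −0.73 ± 0.13, adjusted p = 7.97e-06). Cldn5, a tight junction gene of arteries and brain vessels, rose (1.21 ± 0.18). Among 6 lymphatic genes 2 rose and 3 fell, with a median of −0.53. Other measures of the lymphatic list went the other way. Its score was 2.84 to 3.195 in the PBS-treated mice and 2.22 to 2.44 in wild type. Its summed level was 97.7 to 156 CPM with PBS and 30.2 to 34.5 CPM in wild type. Stab2, a hyaluronan scavenger receptor of sinusoids and lymphatics, read 0.590, 1.43, 1.18, 1.57 and 1.26 CPM in wild type and 62.1 to 126 CPM (median 78.98 CPM) with PBS (log2 fold change 6.11 ± 0.56, adjusted p = 1.37e-09), whereas Prox1, the master factor of lymphatic identity, fell (−0.92 ± 0.21), as did Mmrn1 (−1.92 ± 0.40) and Reln (−1.35 ± 0.19). The lymphatic marker Lyve1 did not pass the filter on low counts.

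Smooth muscle and renin cell genes fell for 5 of 9 and rose for 1 (median −0.58, series medians −0.37, −0.57 and −0.93, with 1 lower with library totals). Ren1, which encodes renin, the start of the angiotensin cascade, read 10.03, 5.41, 16.5, 15.7 and 14.6 CPM in wild type and 1.48 to 6.63 CPM (median 2.25 CPM) with PBS (log2 fold change −2.10 ± 0.36, adjusted p = 7.27e-06). Myh11, smooth muscle myosin, fell from 34.2–49.4 CPM to 11.2–41.7 CPM (log2 fold change −0.82 ± 0.26, adjusted p = 0.00590), and the rise of Cnn1 (0.92 ± 0.35) was lost without wild-type mouse 3 (0.83). Acta2 is shared by vessels and myofibroblasts, and Myh11 and Acta2 went in opposite directions here.

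**Figure D4:**
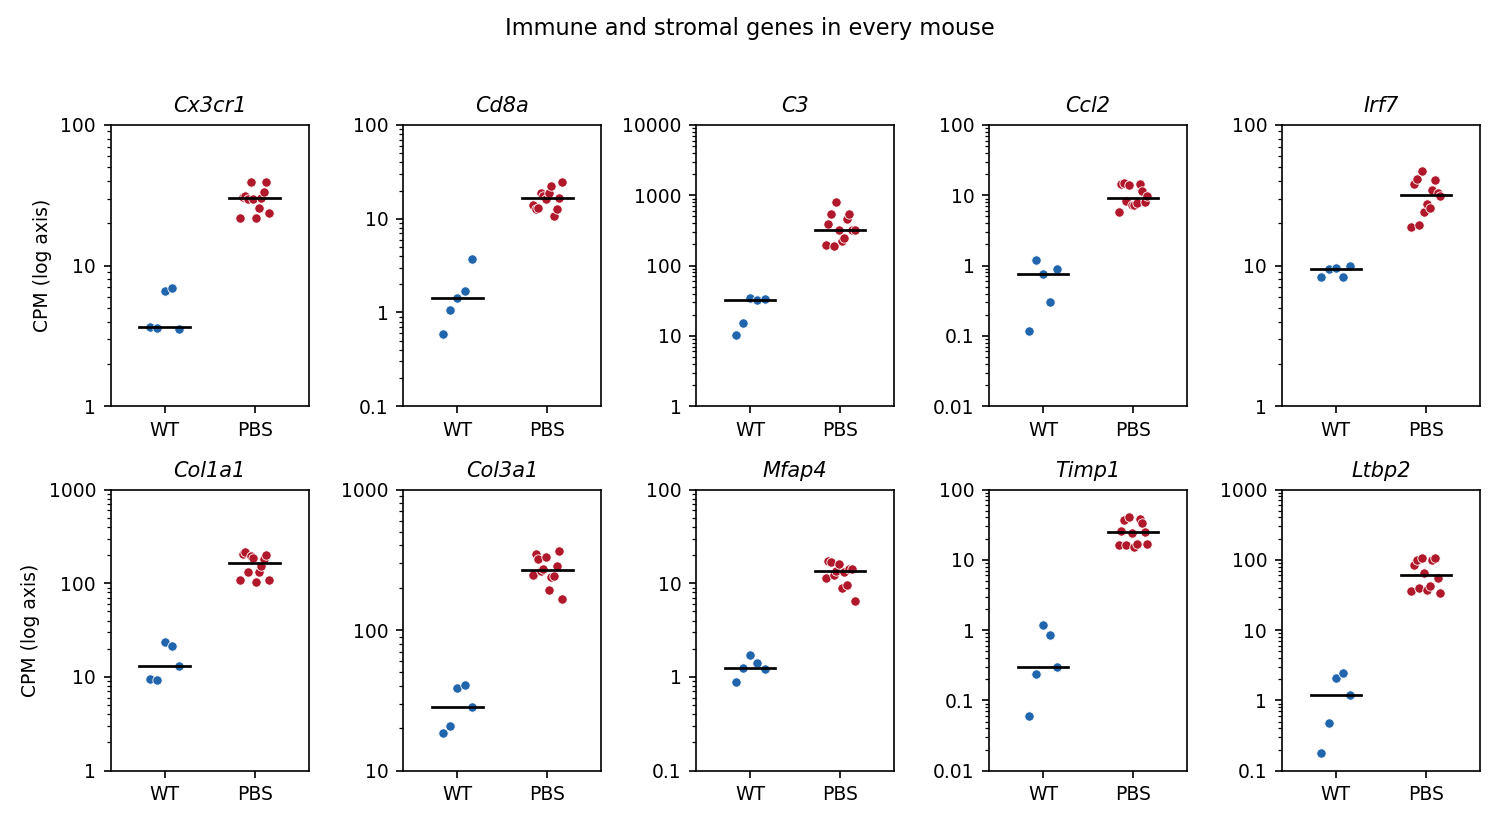
CPM (log axis) of 10 immune and stromal genes in each PBS-treated and wild-type mouse, each point a mouse and each bar a group median. Every PBS-treated mouse lies above every wild-type mouse for C3, Ccl2, Irf7, Timp1 and Ltbp2.

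Metabolic genes of the tubule were mostly lower. In fatty acid oxidation, the main fuel route of the proximal tubule, 12 of 25 genes fell and 2 rose, with a median of −0.49 and series medians of −0.45, −0.53 and −0.54. Ppara, the nuclear receptor that switches on this pathway, read 220.2, 200.3, 214, 224 and 182 CPM in wild type and 47.4 to 109.6 CPM (median 71.2 CPM) with PBS (log2 fold change −1.503 ± 0.18, adjusted p = 4.69e-08). The highest PBS-treated mouse lay below the lowest wild-type mouse. Cpt1a, which admits fatty acids to mitochondria, fell from 625–765 CPM to 272–479 CPM (log2 fold change −0.97 ± 0.12, adjusted p = 3.10e-08), and the dehydrogenase Acadm from 1122–1479 CPM to 454–829.9 CPM (log2 fold change −1.06 ± 0.13, adjusted p = 4.64e-08). The coactivator of mitochondrial biogenesis Ppargc1a fell (−0.56 ± 0.14) but not with library totals or upper-quartile factors. Cyp4a14, a fatty acid hydroxylase and a target of the PPAR-alpha receptor encoded by Ppara, rose (1.69 ± 0.52) with overlap between the groups. With library totals 6 genes of the list remained lower.

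The tricarboxylic acid cycle and the respiratory chain had no called rise, and their medians were close to that of fatty acid oxidation. In the cycle 13 of 18 genes fell (median −0.59), and the groups did not overlap for any of the 18. Sucla2, a subunit of succinyl-CoA synthetase, fell from 262–306 CPM to 117–199 CPM (log2 fold change −0.89 ± 0.12, adjusted p = 1.73e-07), and Ogdh, of the oxoglutarate dehydrogenase complex, from 921–1039 CPM to 500.2–732 CPM (log2 fold change −0.66 ± 0.09, adjusted p = 3.57e-07). Citrate synthase, Cs, stayed under the fold threshold at −0.45 ± 0.06. Of 21 nuclear genes of the respiratory chain 11 fell (median −0.50), among them Ndufa10 of complex I (−0.57 ± 0.08) and Atp5b of the ATP synthase (−0.73 ± 0.10), while Cox4i1 of complex IV had a log2 fold change of −0.16 ± 0.07. The calls depend on the scaling, since with library totals 1 gene of the cycle and 1 of the chain remained lower. The medians were then −0.24 and −0.15 against 0.38 for all genes, so both lists lay below the bulk of genes. Library totals shift all genes by about the same amount, so they could not test the place of a list relative to all genes.

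Gluconeogenesis genes fell, and glycolysis genes were split. All 6 genes of gluconeogenesis, by which the proximal tubule makes glucose, fell (median −1.12). Pck1, the rate-setting carboxykinase, read 2054, 2309, 2216, 2167 and 1486 CPM in wild type and 405 to 1398 CPM (median 837 CPM) with PBS (log2 fold change −1.22 ± 0.24, adjusted p = 4.27e-05), and G6pc, which releases free glucose, fell from 847–1119 CPM to 136–388 CPM (log2 fold change −2.17 ± 0.26, adjusted p = 3.06e-08). Of 17 glycolysis genes 5 rose and 2 fell, with series medians of −0.06, −0.01 and −0.06, and the pooled median of −0.03 became 0.33 with library totals and 0.09 with upper-quartile factors, and was also positive under a filter at 1 CPM. The groups did not overlap for 11 of the 17, and the measures of the list differed in direction, since its score was higher in every PBS-treated mouse than in any wild-type mouse, at 6.80 to 6.997 in the PBS-treated mice and 6.68 to 6.75 in wild type, and its summed level was lower in every one, at 4468 to 5445 CPM with PBS and 5708 to 5934 CPM in wild type. Hk2, the inducible hexokinase, rose from 0.297–1.18 CPM to 1.95–8.12 CPM (log2 fold change 2.48 ± 0.35, adjusted p = 3.67e-07). The platelet-type phosphofructokinase Pfkp rose from 53.7–70.4 CPM to 74.1–110.2 CPM (log2 fold change 0.59 ± 0.12, adjusted p = 9.12e-05), and the glucose and lactate carriers Slc2a1 (0.84 ± 0.08) and Slc16a3 (2.48 ± 0.32) rose as well. Pkm rose (0.52 ± 0.07; 0.50 and not called without PBS-treated mouse 9), and Pgk1 and Pgam1 of the lower pathway fell (−0.60 ± 0.08 and −0.54 ± 0.07).

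Amino acid metabolism fell for 14 of 21 genes and rose for 1, with a median of −0.74. Gatm, which starts creatine synthesis, fell from 603–892 CPM to 165–441 CPM (log2 fold change −1.42 ± 0.22, adjusted p = 2.09e-06), and Gldc, which cleaves glycine, fell 5.04-fold (log2 fold change −2.33 ± 0.27, adjusted p = 2.61e-08). Ass1, with which the proximal tubule makes arginine, fell (log2 fold change −1.11 ± 0.18, adjusted p = 3.48e-06). In the NAD and kynurenine list 7 of 13 genes fell and 1 rose (median −0.74). Kmo, the kynurenine hydroxylase, fell from 205–229.7 CPM to 55.1–121 CPM (log2 fold change −1.37 ± 0.17, adjusted p = 7.72e-08). Nnmt, which methylates nicotinamide and so removes it from NAD synthesis, read 0.118, 0.356, 0.296, 0.121 and 0.181 CPM in wild type and 1.11 to 3.33 CPM (median 2.39 CPM) with PBS (log2 fold change 3.41 ± 0.34, adjusted p = 4.04e-09). Qprt, of NAD synthesis from tryptophan, was just under the fold threshold (−0.47 ± 0.09), and Nampt, of the salvage route, fell (log2 fold change −0.86 ± 0.10, adjusted p = 4.03e-08).

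The remaining metabolic lists were split or lower. Cholesterol synthesis and uptake had 5 genes higher and 5 lower of 18, with series medians of −0.18, −0.32 and −0.30 and a pooled median of −0.35 that became 0.01 with library totals. Sqle, a controlled enzyme of sterol synthesis, rose (log2 fold change 1.16 ± 0.17, adjusted p = 7.13e-07). Antioxidant enzymes fell for 8 of 15 genes and rose for 1 (median −0.53), and 1 remained lower with library totals. Catalase, Cat, read 1380, 1245, 1238, 1237 and 1230 CPM in wild type and 477 to 889 CPM (median 666 CPM) with PBS (log2 fold change −0.89 ± 0.13, adjusted p = 9.72e-07). Gpx3, the plasma glutathione peroxidase made in the kidney, fell (−0.75 ± 0.13), and the cystine importer Slc7a11 rose (log2 fold change 1.45 ± 0.50, adjusted p = 0.0101). Sod3 fell (−0.53 ± 0.09) but was −0.46 without wild-type mouse 1 and −0.50 without PBS-treated mouse 2, neither called. Cytochromes P450 of the tubule fell for 6 of 12 genes and rose for 1 (median −0.55, series medians −0.33, −0.56 and −0.22). Cyp4b1, a fatty acid and xenobiotic oxidase, read 7331, 7354, 5689, 5568 and 6181 CPM in wild type and 1132 to 3039 CPM (median 1951 CPM) with PBS (log2 fold change −1.67 ± 0.21, adjusted p = 5.18e-08). Cyp2e1, the ethanol-inducible form, was not called (−0.18 ± 0.13).

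The single genes with the largest differences were not all members of these lists. Among called genes averaging 5 CPM or more over these mice, the 8 largest rises included Camk2b, the beta subunit of calcium/calmodulin-dependent kinase II, which is best known from neurons. It read 0.118, 0.178, 0.0592, 0.121 and 0.0602 CPM in wild type and 7.48 to 12.1 CPM (median 9.67 CPM) with PBS (log2 fold change 6.40 ± 0.54, adjusted p = 3.94e-10), the narrowest PBS range, relative to its median, of the 8 largest rises. Foxj1, the master factor of motile cilia, read 0.177, 0.653, 0.651, 0.848 and 0.542 CPM and 7.88 to 33.6 CPM (median 14.04 CPM) in the same order (log2 fold change 5.01 ± 0.66, adjusted p = 1.37e-07). Mybpc2, a myosin-binding protein of fast skeletal muscle, rose from 0.118–1.12 CPM to 14.03–53.5 CPM (log2 fold change 5.37 ± 0.65, adjusted p = 3.66e-08).

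Among the falls, Gm8615, annotated as a transcribed processed pseudogene (chr5:149155108-149156209, GRCm38), read 84.6, 92.1, 97.1, 98.6 and 96.8 CPM in wild type and 0.149 to 0.488 CPM (median 0.266 CPM) with PBS (log2 fold change −8.38 ± 1.24, adjusted p = 6.77e-07). Reads of a processed pseudogene can be shared with its parent gene, so this value is uncertain. Col6a6, a collagen VI chain, read 134, 172, 133, 128 and 72.3 CPM and 0.845 to 5.43 CPM (median 2.74 CPM) in the same order (log2 fold change −5.50 ± 0.76, adjusted p = 2.40e-07). Cpb2, a carboxypeptidase that slows clot breakdown, read 34.3, 29.6, 30.9, 33.1 and 38.9 CPM and 1.07 to 2.25 CPM (median 1.78 CPM) (log2 fold change −4.28 ± 0.52, adjusted p = 4.61e-08). Npy, a neuropeptide, fell from 11.4–45.2 CPM to 0.383–1.14 CPM (log2 fold change −5.09 ± 0.76, adjusted p = 7.85e-07). Other falls rest on some wild-type mice. Hsd17b13, a lipid droplet enzyme, read 17.2, 25.1, 15.3, 16.2 and 1.505 CPM in wild-type mice 1 to 5 against 0.376–1.496 CPM with PBS, so that mouse 5 lay just above the PBS range (log2 fold change −4.08 ± 0.52, adjusted p = 6.91e-08); within number series 3, whose wild-type sample is that mouse, its log2 fold change was −1.22 and was not called. Hdc, the histamine-forming enzyme, read 0.295, 212, 0.237, 0.0605 and 263 CPM in wild-type mice 1 to 5 against 0.348–1.61 CPM with PBS, so that mice 2 and 5 carry the fall (log2 fold change −6.57 ± 0.78, adjusted p = 3.34e-08); within number series 2 its log2 fold change was 2.48. Ttr, the thyroid hormone carrier transthyretin, read 2.89, 1.72, 161, 162 and 17.5 CPM in wild type and 0.325–5.78 CPM with PBS (log2 fold change −4.83 ± 0.74, adjusted p = 1.33e-06), and without wild-type mice 3 and 4 it was −1.58 and not called.

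**Figure D5:**
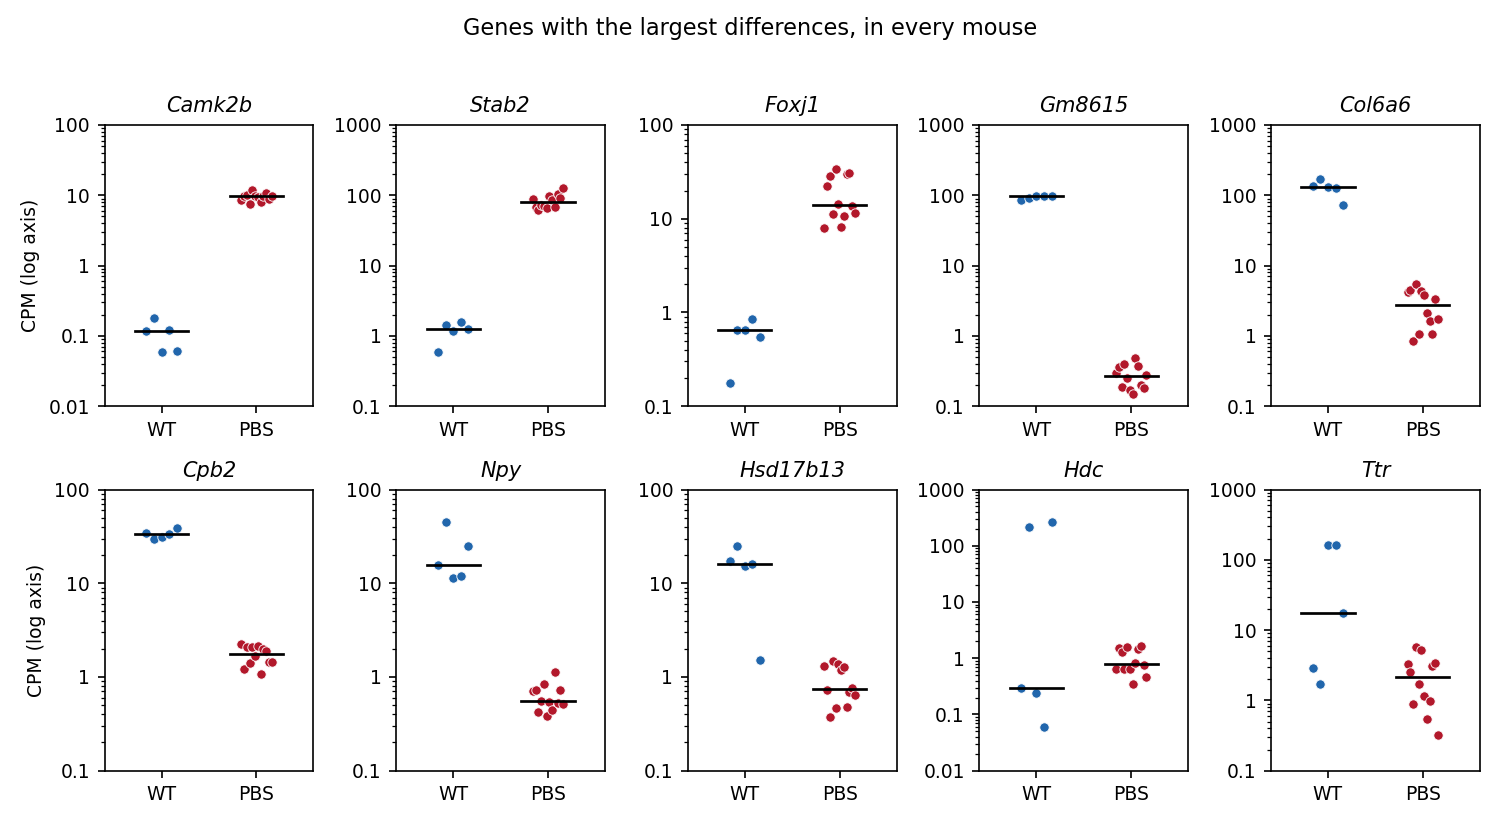
CPM (log axis) of 10 of the genes with the largest differences in each PBS-treated and wild-type mouse, each point a mouse and each bar a group median. Gm8615, Col6a6 and Cpb2 separate the groups in every mouse, whereas the wild-type points of Hdc and Ttr are spread widely.

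Lists for tissue that may come with a kidney were measured in the same libraries. Hepatocyte genes were called lower for 5 of 8 (median −1.39), with wild-type mouse 5 highest at 178.4 CPM for Alb, and without that mouse 2 were called and Alb was −0.66. The hepatocyte series medians were 0.44, −0.66 and −3.09. Summed levels of the list spanned 22.6 to 102 CPM with PBS and 63.5 to 317 CPM in wild type. Adipocyte genes had a median of 2.20, with 1 called higher of 7, and 1.24 without PBS-treated mouse 3. Their series medians were 3.48, 4.57 and −0.09. Adipoq had a PBS median of 0.0713 CPM and a PBS maximum of 9.35 CPM. Adrenal cortex genes were at most 1.70 CPM in any mouse, neither of the 2 tested was called (Star −0.11 ± 0.15, Cyp17a1 0.19 ± 0.27), and Cyp11b1 and Cyp11b2 did not pass the filter on low counts. The adrenal cortex median was 0.04, with series medians of −0.21, 0.19 and 0.50.

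Sex-linked and androgen-responsive genes differed as well. The X-inactivation transcript Xist was at most 0.296 CPM in every mouse, as is usual in males, and Y-linked genes were counted in all. Even so 3 of 4 tested genes of the sex-linked list fell. Uty, a Y-linked demethylase relative, read 25.9, 28.3, 27.6, 32.9 and 31.9 CPM in wild type and 2.63 to 8.28 CPM (median 5.99 CPM) with PBS (log2 fold change −2.32 ± 0.22, adjusted p = 1.53e-09), and Kdm5d fell from 36.2–39.3 CPM to 17.6–26.3 CPM (log2 fold change −0.72 ± 0.08, adjusted p = 2.54e-08). All 6 androgen-responsive tubule genes fell (median −1.24, series medians −1.11, −1.25 and −1.28). Kap, the kidney androgen-regulated protein of the proximal tubule, read 49320, 43670, 35170, 35450 and 41100 CPM in wild type and 13790 to 31680 CPM (median 21000 CPM) with PBS (log2 fold change −0.87 ± 0.16, adjusted p = 1.48e-05), and Odc1, the first enzyme of polyamine synthesis, fell from 763–1468 CPM to 232–732 CPM (log2 fold change −1.71 ± 0.20, adjusted p = 3.15e-08). These genes belong to the proximal tubule, whose transporters fell in the same kidneys. Hormone levels were not measured here, and the part of either in the androgen list was not tested.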

How the data were processed

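Kidney mRNA of 31 mice was sequenced, and the 12 PBS-treated Pcy/CD1 and 5 wild-type CD1 mice are compared here. The authors trimmed paired reads, mapped them to GRCm38 with STAR and counted uniquely mapped reads per gene with HTSeq, and the deposited values are raw counts for 23509 genes in each mouse, with no normalization. The submitters' processing notes name FastQC 0.11.2, Trim Galore, STAR, SAMtools 1.1, HTSeq 0.6.1 and Picard 1.119. Entries of the tables that name no gene were left out of library sizes; reads on no feature came to 8.40% to 10.1% with PBS and 8.71% to 9.20% in wild type. Groups and replicate numbers come from the labels, which list each library as a separate sample; a legend of the study names fewer animals per group, and this was not resolved.

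Genes kept by edgeR's default filter on low counts over the groups (15185) entered 1 quasi-likelihood fit of all 31 mice with a coefficient for each group and no covariate (edgeR 4.0.16, R 4.3.3, TMM factors). Calls needed an adjusted p under 0.05 (Benjamini-Hochberg over all genes tested) and an absolute log2 fold change over 0.5, the thresholds the study states. An approximate standard error was taken as the size of the log2 fold change over the root of its F statistic. The fit was checked on simulated counts with known changes before use. That simulation changed a small share of the genes, as many up as down, so it did not test the scaling. Scores are means of log2(CPM + 1). Summaries and plots were made with Python 3.11.15, numpy 2.4.6, pandas 2.3.3 and matplotlib 3.10.9. Alternatives were DESeq2 1.42.0, other scalings, filters and thresholds, only the mice compared, the number series as a covariate or taken singly, a replicate block, and mice left out.

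The 48 lists hold 652 entries, of which 651 matched a gene in the files, and gene names are spelled as the files give them. Members and lists were chosen with earlier results of these data known, so no list was tested. The naming rule took the defining members of each list, in each direction the 2 called members with the smallest p, and the 8 largest rises and 8 largest falls at 5 CPM or more. The text names some of these genes and leaves out others. Other members are named after their values were seen, to spell out a count. The promoter motif was also chosen after seeing the data. Some list members stay in the counts and medians but are not reported here by name. Coordinates are those of GRCm38 in the GENCODE vM21 annotation, and promoter letters are from RefSeq. The RGLS4326 effect was not analysed here.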

Additional observations from a re-analysis of the deposited data

Results flagged for a closer look

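Among the 5 wild-type mice, 281 list scores and gene levels were looked at for a mouse far from the other 4, meaning a gap to the nearest mouse of more than 0.71 of the whole range, and 16 met that mark. Chance flags about 1 in 20 groups.

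Wild-type mouse 1 had the lowest injured tubule score (3.997) and the lowest fibroblast score (2.809), and it was the highest of its group for the catalase gene Cat (1380 CPM). Wild-type mouse 2 had the lowest dendritic cell and MHC class II score (2.774) and the lowest erythrocyte score (3.948). Wild-type mouse 5 was set apart for the liver plasma proteins Alb (178.4 CPM) and Apoa2 (21.26 CPM), for the angiotensin receptor gene Agtr1a (54.8 CPM), the basement membrane gene Col4a1 (859.6 CPM), the peroxidase gene Gpx3 (17720 CPM), the kynurenine enzyme Kmo (204.8 CPM) and the ciliary genes Ift88 (36.79 CPM) and Invs (48.11 CPM). The lymphatic gene Mmrn1 stood apart in mouse 4 (1.453 CPM). The mast cell proteases Cpa3 in mouse 4 (0.06055 CPM) and Mcpt4 in mouse 3 (0.05916 CPM) stood apart only because the other 4 mice were at 0. For Alb, Apoa2 and Col4a1 the call depends on mouse 5, and the other called genes named here kept their call without the mouse that stood apart.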

How the results depend on the processing

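Apart from members not reported here, the naming rule chose 226 tested genes, and the text names only some of them. Of these 226 genes 197 were called, and 114 of those kept their call and direction under each of the 32 alternatives that refit the model. DESeq2's test, its size factors, the number series as a covariate, no filter on low counts and wild-type mice 3 and 4 summed as 1 mouse moved each list median by less than the spread between mice and left each count of changed genes within 1.5 times. Leaving out 1 mouse gave 6235 to 6610 changed genes, 3653 to 3800 higher and 2582 to 2831 lower. Over the same fits the medians ran from 1.24 to 3.35 (adipocyte), −0.043 to 0.18 (adrenal cortex), 0.76 to 1.10 (B and plasma cell), −1.53 to −0.65 (hepatocyte), −0.18 to 0.53 (neutrophil) and 1.79 to 2.11 (T and NK cell). The count of changed genes was 11281 with no threshold on the fold change, 5721 higher and 5560 lower, and 1623 fell when edgeR's glmTreat was set against 0.5.

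Of these alternatives, unscaled library totals moved the most list medians, 43 of 48. Unscaled library totals gave 6285 higher and 1071 lower genes, and upper-quartile factors 4368 and 1997. List medians with library totals were 0.94 (podocyte), −0.88 (proximal tubule S1 and S2), −0.91 (proximal tubule S3), 0.94 (thin limb), 0.39 (thick ascending limb), −0.25 (distal convoluted and connecting tubule), 1.69 (collecting duct principal cell), 0.41 (intercalated cell), 0.063 (nephron transcription factors) and 0.42 (cilium and cystic disease genes). Further medians with that scaling were 0.46 (cyst secretion and cAMP), 1.67 (cell cycle), 1.02 (cell cycle inhibitors and senescence), 2.95 (macrophage), 1.85 (dendritic cell and MHC class II), 2.33 (T and NK cell), 1.37 (B and plasma cell), 0.38 (neutrophil), 2.02 (complement), 2.43 (chemokines) and 2.17 (interferon response). For the next lists it gave 1.65 (fibroblast and myofibroblast), 1.77 (fibrillar and other collagens), 1.97 (matrix glycoproteins and crosslinkers), 2.24 (matrix proteases and inhibitors), 0.89 (TGF-beta and CCN signalling), 0.18 (blood endothelium), −0.17 (lymphatic endothelium), −0.21 (vascular smooth muscle and renin cell), −0.13 (fatty acid oxidation), −0.24 (tricarboxylic acid cycle) and −0.15 (respiratory chain). The remaining medians under library totals were 0.33 (glycolysis), −0.77 (gluconeogenesis), −0.38 (amino acid metabolism), −0.38 (NAD and kynurenine), 0.0086 (cholesterol synthesis), −0.17 (antioxidant enzymes), −0.19 (cytochromes P450 of tubule), −1.495 (erythrocyte), 0.40 (adrenal cortex), −0.38 (sex-linked) and −0.88 (androgen-responsive tubule). Upper-quartile factors moved the medians to −0.18 (nephron transcription factors), 0.17 (cilium and cystic disease genes), 0.21 (cyst secretion and cAMP), 2.08 (T and NK cell), −0.41 (lymphatic endothelium), 0.087 (glycolysis), −0.23 (cholesterol synthesis), −0.41 (antioxidant enzymes) and 0.16 (adrenal cortex). Of the 197 called genes that the naming rule chose, 41 no longer passed with library totals and 15 with upper-quartile factors. Within number series 1 and 2, 26 and 23 no longer passed. The medians moved by the shift in all genes that these scalings bring.

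Within single number series, which hold 1 or 2 wild-type mice, the medians moved in series 1 to 0.82 (podocyte), 0.26 (thin limb), −0.44 (nephron transcription factors), 1.64 (cell cycle), 1.78 (dendritic cell and MHC class II), 2.26 (T and NK cell), 1.28 (B and plasma cell), 0.53 (neutrophil), 2.42 (chemokines), 1.65 (fibrillar and other collagens), 1.91 (matrix glycoproteins and crosslinkers), 2.53 (matrix proteases and inhibitors), 0.83 (TGF-beta and CCN signalling), −0.39 (lymphatic endothelium), −0.18 (cholesterol synthesis), 3.48 (adipocyte), −0.21 (adrenal cortex) and 0.44 (hepatocyte). In series 2 they moved to 0.997 (thin limb), −0.84 (distal convoluted and connecting tubule), −0.20 (nephron transcription factors), −0.054 (cilium and cystic disease genes), 0.24 (cyst secretion and cAMP), 0.77 (cell cycle), 2.07 (macrophage), 1.61 (T and NK cell), 0.46 (B and plasma cell), −0.47 (neutrophil), 2.48 (mast cell), 1.73 (chemokines), −0.66 (lymphatic endothelium), 3.11 (urothelium), 4.57 (adipocyte) and 0.19 (adrenal cortex). In series 3 they moved to 0.19 (thin limb), 0.27 (thick ascending limb), −0.32 (distal convoluted and connecting tubule), 0.20 (intercalated cell), 0.13 (cilium and cystic disease genes), 0.29 (cell cycle inhibitors and senescence), 2.97 (macrophage), 2.16 (T and NK cell), 0.44 (B and plasma cell), 1.75 (neutrophil), 1.29 (complement), −0.93 (vascular smooth muscle and renin cell), −0.22 (cytochromes P450 of tubule), 0.86 (urothelium), −0.093 (adipocyte), 0.50 (adrenal cortex) and −3.09 (hepatocyte). Single genes turned direction there, without a call in series 1 or 2: Alb (0.26), Apoa2 (0.24) and Ttr (0.43) in series 1, Hdc (2.48) in series 2, and Cd55 (0.55) in series 3, which holds 1 wild-type mouse. The cause was not tested.

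Leaving out both wild-type mice 3 and 4, an alternative chosen after seeing the data, moved medians to 0.24 (thin limb), −0.38 (distal convoluted and connecting tubule), 1.57 (cell cycle), 2.90 (macrophage), 1.88 (dendritic cell and MHC class II), 2.32 (T and NK cell), 1.10 (neutrophil), 1.64 (fibrillar and other collagens) and −0.17 (cytochromes P450 of tubule). A filter at 1 CPM on the mean of each gene, which drops members, gave 2.24 (T and NK cell), 0.73 (B and plasma cell), 1.65 (neutrophil), 2.39 (matrix proteases and inhibitors), −0.10 (lymphatic endothelium) and −0.076 (adrenal cortex). A fit of only the 17 mice compared gave 2.08 (T and NK cell) and −0.089 (adrenal cortex).

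Replicate numbers do not pair the mice, since same-numbered PBS-treated and wild-type mice are different animals and their deviations from the group means correlated at 0.19, −0.03, 0.05, 0.09 and 0.04 over the 5 numbers. With the number as a replicate block, 3867 genes were called higher and 2964 lower. The block moved the medians to 1.69 (dendritic cell and MHC class II), 1.35 (B and plasma cell), 2.31 (chemokines), −0.65 (lymphatic endothelium) and −2.18 (erythrocyte).

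For the scores, a pseudocount of 0.1 or 5 in place of 1 changed the difference between the groups by more than the spread in 11 and 14 of 48 lists. Genes under about 1 CPM rest on few counts, 5 wild-type mice limit the estimate of their spread, and a library average cannot place a transcript in a cell. Genotype, colony and injection stay joined in this design.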
